A study of Caenorhabditis elegans with 43 samples.

Results

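The vitellogenin genes vit-1 to vit-6 encode the yolk proteins of Caenorhabditis elegans. All 6 were found by symbol among the 20182 genes of a table of ribosome footprint counts and were followed in each of 43 libraries. Footprints are mRNA fragments shielded by ribosomes, so a count reflects both how much mRNA was present and how densely ribosomes covered it, and these cannot be told apart here. Arrested first-stage larvae were fed, grown at 25 °C and collected as whole worms every 2 h. The strain lin-41(xe11);let-7(n2853), called the double mutant below, and the strain lin-41(xe11) gave 11 libraries each, from 18 to 38 h. The strain let-7(n2853) gave 10 libraries, from 18 to 36 h, and the wild-type strain N2 gave 11, from 18 to 38 h. In n2853 animals a base of the let-7 microRNA is changed within its seed, the part that pairs with target mRNAs, which lowers let-7 function. The allele xe11 changes the let-7 sites in the 3′UTR of lin-41, so that they no longer match the normal let-7 but match the n2853 form. The double mutant carries both alleles and N2 carries neither. The let-7(n2853) animals formed a time course of their own, with monosomes from sucrose gradients, while the other 3 strains shared a course purified by size-exclusion chromatography. In comparisons of let-7(n2853) with N2, the allele, the course and the purification cannot be told apart.

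Vitellogenins are large lipid-carrying proteins made in the intestine of the hermaphrodite as it becomes an adult. They are secreted into the body cavity and taken up by growing oocytes through the receptor RME-2, where they feed the embryo. Their genes are known as a marker of the larva-to-adult switch in the intestine, which the heterochronic pathway (lin-14, lin-28, hbl-1, lin-41, let-7 and the factor LIN-29) times in the epidermis. LIN-41 is an RNA-binding protein that let-7 represses in late larvae.

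In the WBcel235 annotation, 5 of the genes lie on chromosome X and vit-6 lies on chromosome IV. vit-1 spans X:7727889-7733168 on the plus strand with 5 exons, and vit-2 spans X:5101042-5106169 on the plus strand with 5 exons. vit-3 (X:3567355-3572549) and vit-4 (X:3558769-3563965) lie 3389 bases apart on the minus strand, each with 6 exons. vit-5 spans X:3403471-3408603 on the plus strand with 6 exons, 150165 bases from vit-4, and vit-6 spans IV:8261157-8266459 on the plus strand with 5 exons. The annotated proteins have 1616 amino acids for vit-1, 1613 for vit-2, 1603 for each of vit-3, vit-4 and vit-5, and 1651 for vit-6. vit-6 stands apart from the rest: its product is cut into a pair of smaller yolk proteins. vit-3, vit-4 and vit-5 are near-identical copies, and vit-1 and vit-2 are close relatives. How reads matching several places were counted is not given in the sources used here, so the split of counts among vit-3, vit-4 and vit-5, and between vit-1 and vit-2, is uncertain. vit-2 also overlaps 1 protein-coding gene on the other strand at its 3′ end, and vit-3 and vit-4 each overlap 1 noncoding gene.

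The targeted gene lin-41 was read first as a check of the strains. At 28 to 32 h it stood at 25.0 to 34.0 CPM in the double mutant, 34.2 to 40.7 CPM in lin-41(xe11), 58.8 to 65.9 CPM in let-7(n2853) and 6.35 to 7.48 CPM in N2, and none of the mutant ranges overlapped that of N2. At 34 to 38 h the range was 20.1 to 43.5 CPM in the double mutant, 16.7 to 57.2 CPM in lin-41(xe11), 52.6 to 54.8 CPM in let-7(n2853) up to 36 h and 10.7 to 43.8 CPM in N2, so that the double mutant and lin-41(xe11) overlapped N2 there. CPM is the count of a gene scaled to a common library size after TMM factors. Total counts ran from 6133302 to 12797339 per library in the double mutant, 7040947 to 12551598 in lin-41(xe11), 17364056 to 32261888 in let-7(n2853) and 5020197 to 12361022 in N2. A count of 0 allows up to 3 counts, which is 0.245 to 0.451 CPM in double mutant libraries, 0.236 to 0.434 CPM in lin-41(xe11), 0.0930 to 0.164 CPM in let-7(n2853) and 0.222 to 0.574 CPM in N2. The windows were set by hour: L3 (18 to 24 h), mid L4 (28 to 32 h) and late L4 (34 to 38 h). The stage names follow usual timing and were not given by the labels. With 1 library per strain and hour, the hours of a window stood in for replicates, and p-values measure the spread between these libraries only.

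All 6 vitellogenin genes were near 0 in L3 and stood highest at 38 h in the 3 strains of the second course. vit-1, vit-2 and vit-6 supplied most of the increase. In the L3 window the summed level of the 6 genes was 0.708 to 2.31 CPM in the double mutant, 1.43 to 2.14 CPM in lin-41(xe11), 1.32 to 2.04 CPM in let-7(n2853) and 0.517 to 0.953 CPM in N2. At 38 h it was 1369 CPM in the double mutant, 8276 CPM in lin-41(xe11) and 11122 CPM in N2. That was 0.134% of all counts in the double mutant (95% interval 0.132 to 0.137), 0.793% in lin-41(xe11) (0.788 to 0.799) and 1.07% in N2 (1.06 to 1.07). The last let-7(n2853) library, at 36 h, held 59.2 CPM, against 2206 CPM in N2 at that hour. The ranking at the last hours was therefore let-7(n2853), the double mutant, lin-41(xe11) and N2, from low to high. In bulk worms, fewer intestinal cells producing yolk and less yolk mRNA per cell cannot be told apart.

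**Figure D1:**
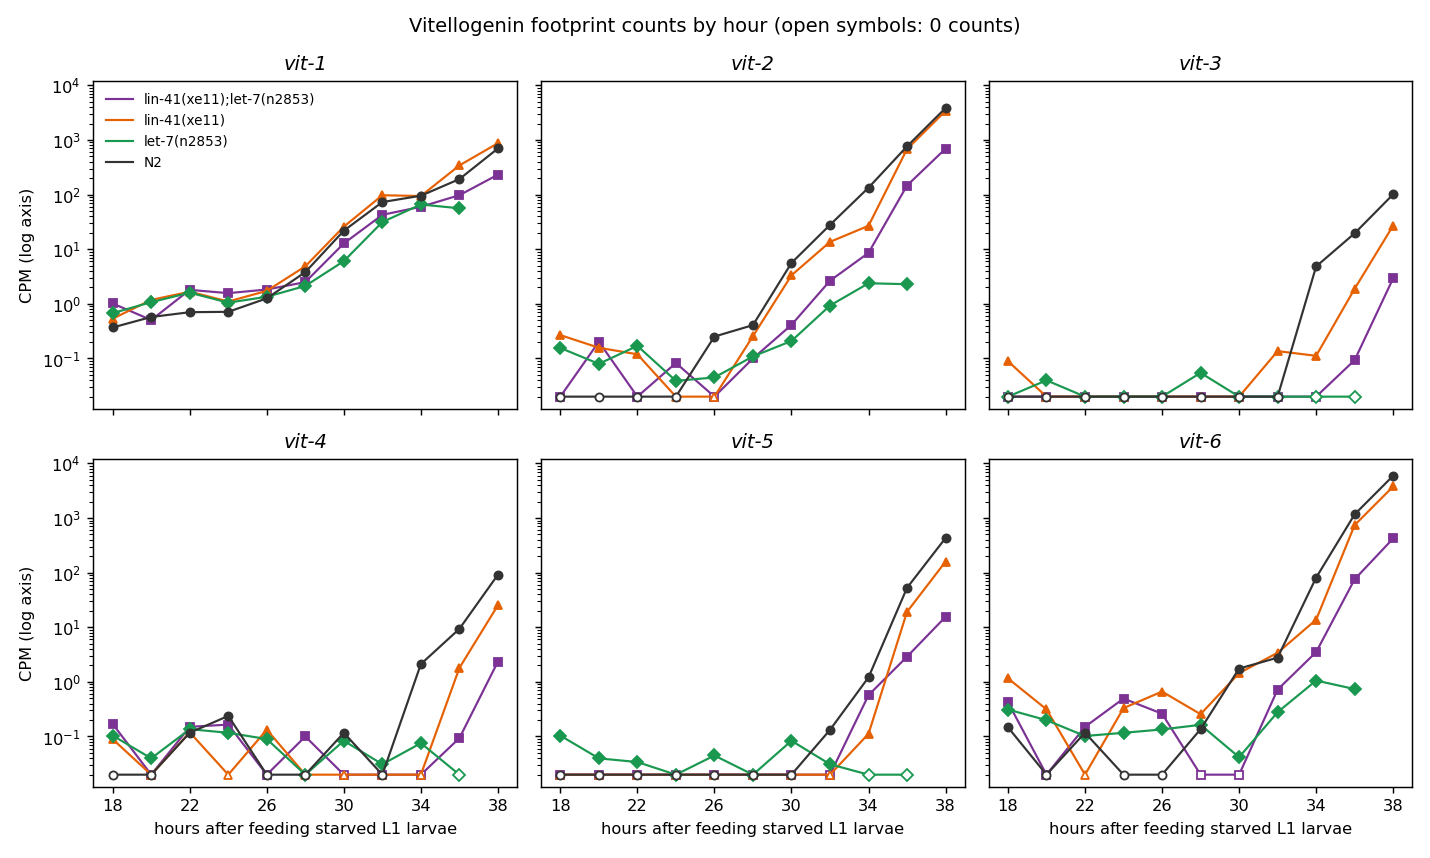
Level of each vitellogenin gene (CPM, log axis) against hours of development in each of the 4 strains, with 1 point per library and open symbols near the bottom of the axis for libraries with 0 counts. The 6 genes climb after 28 h in the double mutant, lin-41(xe11) and N2. In let-7(n2853), vit-1 climbs and vit-2 and vit-6 stay below 3 CPM.

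vit-1 was the earliest and the only member with counts in every library. From 28 to 38 h in steps of 2 h, it stood at 2.50, 12.8, 42.6, 59.8, 97.5 and 232 CPM in the double mutant. The same hours gave 4.86, 25.9, 97.3, 94.2, 342 and 874 CPM in lin-41(xe11), and 3.81, 21.8, 73.0, 95.4, 192 and 699 CPM in N2. From 28 to 36 h, let-7(n2853) gave 2.13, 6.05, 31.5, 65.9 and 56.2 CPM. The double mutant was below N2 at each of these 6 hours, while lin-41(xe11) was above N2 at 5 of them and level with it at 34 h, where it had 98.8% of the N2 value.

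vit-2 and vit-6 started later and ended highest. vit-2 stood at 0.412, 2.65, 8.57, 147 and 694 CPM from 30 to 38 h in the double mutant and at 3.33, 13.6, 26.8, 681 and 3409.8 CPM in lin-41(xe11). In N2 it stood at 5.60, 27.9, 134, 764 and 3850.2 CPM at those hours. Every double mutant value lay below the lin-41(xe11) value of its hour, and every lin-41(xe11) value below the N2 value. vit-6 stood at 0, 0.722, 3.51, 75.6 and 422 CPM from 30 to 38 h in the double mutant and at 1.45, 3.41, 13.8, 743 and 3781 CPM in lin-41(xe11). In N2 it stood at 1.75, 2.78, 81.0, 1168 and 5949 CPM. The order of the strains was the same as for vit-2 except at 32 h, where lin-41(xe11) and N2 held 25 and 21 counts of vit-6. By count, vit-6 had rank 441 among all genes of the 38 h library in the double mutant, rank 17 in lin-41(xe11) and rank 4 in N2.

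vit-3, vit-4 and vit-5 came last. vit-3 stood at 0, 0.0934 and 2.94 CPM at 34, 36 and 38 h in the double mutant, 0.112, 1.89 and 27.2 CPM in lin-41(xe11), and 4.84, 19.6 and 101 CPM in N2. vit-4 stood at 0, 0.0934 and 2.35 CPM in the double mutant, 0, 1.80 and 25.4 CPM in lin-41(xe11), and 2.12, 9.35 and 91.7 CPM in N2. vit-5 stood at 0.571, 2.89 and 15.5 CPM in the double mutant, 0.112, 19.2 and 159 CPM in lin-41(xe11), and 1.21, 52.7 and 431 CPM in N2. Of these 3 strains, the double mutant was lowest and N2 highest for all 3 genes at 36 and 38 h. vit-3 had no count in 9 of 11 libraries of the double mutant, 6 of 11 of lin-41(xe11), 8 of 10 of let-7(n2853) and 8 of 11 of N2. Most counts of these genes thus came from the last 2 hours.

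In late L4, all 6 vitellogenin genes were lower in the double mutant than in N2 (edgeR quasi-likelihood test with a term for each hour, Benjamini-Hochberg adjusted over 13906 genes, called at 0.05). Of all genes tested, 1.98% were called lower and 3.64% were called in either direction, and the median log2 fold change over all genes was −0.02. vit-1 was the least reduced, with a log2 fold change of −1.08 ± 0.17 (SE; 2.11-fold lower, edgeR adjusted p = 0.000859), and vit-2 followed at −2.98 ± 0.32 (7.88-fold lower, adjusted p = 2.75e-05). vit-6 was at −4.14 ± 0.30 (17.7-fold lower, adjusted p = 5.05e-08) and vit-5 at −4.45 ± 0.37 (21.8-fold lower, adjusted p = 0.000293). vit-4 was at −5.53 ± 0.39 (46.2-fold lower, adjusted p = 1.39e-06) and vit-3 at −5.70 ± 0.49 (51.9-fold lower, adjusted p = 0.000405). The change was thus smallest in vit-1 and largest in vit-3 and vit-4. In the double mutant, however, vit-3 had 0 to 25 counts and vit-4 0 to 20 counts per late L4 library, near the floor. For both genes the N2 libraries were enough to meet the filter of at least 1 CPM in 3 libraries. The lin-41(xe11) libraries of 36 and 38 h and the double mutant library of 38 h also reached 1 CPM. Over the alternatives, the log2 fold change ran from −7.74 to −4.14 for vit-3 and from −6.66 to −3.51 for vit-4. DESeq2 called 4 of the 6 and limma on the deposited log2 values called 6. The calls of vit-3 and vit-5 were lost in DESeq2 (adjusted p = 0.724 and 0.918), and vit-5 also without the 38 h libraries (log2 fold change −3.71, adjusted p = 0.0693).

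In lin-41(xe11), 3 of the 6 genes were lower than in N2 in late L4, where 1.19% of all genes were called lower and 1.83% in either direction. The called genes were vit-3 at −2.56 ± 0.36 (edgeR adjusted p = 0.00967), vit-4 at −2.14 ± 0.28 (adjusted p = 0.000763) and, with a smaller change, vit-6 at −1.19 ± 0.26 (adjusted p = 0.0195). vit-5 missed the threshold with a log2 fold change of −1.46 ± 0.29 (adjusted p = 0.0509), and so did vit-2 at −0.87 ± 0.30 (adjusted p = 0.204). vit-1 had a positive value, 0.39 ± 0.17 (adjusted p = 0.356), and was not called. DESeq2 called 1 gene, vit-4, and limma called 2. Without the 36 h libraries vit-3 was no longer called (−2.23, adjusted p = 0.118), and without the 34 h libraries vit-6 was at −0.66 and not called (adjusted p = 0.138) while vit-5 was called (−1.45, adjusted p = 0.00489).

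The let-7 allele was tested within the xe11 background by setting the double mutant against lin-41(xe11). In that background n2853 lowers let-7 function and also makes the microRNA match the changed sites of lin-41. The contrast cannot tell these apart. In late L4, 5 of the 6 vitellogenin genes were lower in the double mutant, among 14 genes of the table called lower (0.101% of those tested, and 0.23% in either direction). vit-6 was at −2.95 ± 0.29 (edgeR adjusted p = 3.25e-05), vit-1 at −1.47 ± 0.17 (adjusted p = 0.000283) and vit-4 at −3.39 ± 0.43 (adjusted p = 0.00319). vit-2 was at −2.11 ± 0.30 (adjusted p = 0.00423) and vit-5 at −2.99 ± 0.37 (adjusted p = 0.0207), while vit-3 was at −3.14 ± 0.55 and was not called (adjusted p = 0.131). vit-1 and vit-6 kept their calls when any single hour was left out. The calls of vit-2, vit-4 and vit-5 were lost without the 36 h libraries (adjusted p = 0.0894, 0.0593 and 0.478) and without the 38 h libraries (0.0793, 0.848 and 1), which left 2 calls in each case. DESeq2 called 3 of the 6 genes and limma called 4.

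**Figure D2:**
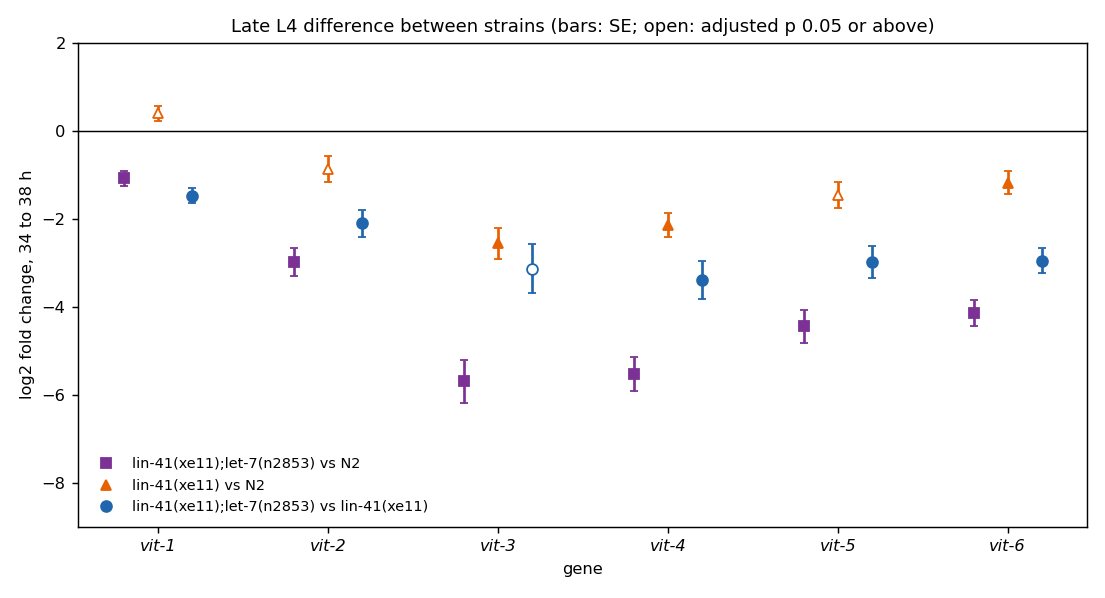
Log2 fold change of each vitellogenin gene in late L4 with its standard error, for the double mutant against N2, lin-41(xe11) against N2 and the double mutant against lin-41(xe11); filled points passed an edgeR adjusted p of 0.05. vit-1 is closest to 0 in the double mutant and vit-3 and vit-4 are farthest from it.

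All of these calls rest on the term for the hour, with the genes many-fold higher at 38 h than at 34 h of the same window. When strains were compared with no hour term, edgeR called 0 of the 6 genes in each of the 3 late L4 comparisons. The comparisons of the double mutant and of lin-41(xe11) with N2 share the N2 libraries.

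Set hour by hour against N2, the summed vitellogenin level of the double mutant was 22.8% of N2 at 34 h, 14.6% at 36 h and 12.3% at 38 h. lin-41(xe11) had 42.4%, 81.1% and 74.4% of N2 at those hours. At 38 h, vit-1 in the double mutant was at 33.1% of N2 (95% interval of the ratio 0.315 to 0.349), vit-2 at 18.0% (0.175 to 0.185) and vit-6 at 7.10% (0.0686 to 0.0734). vit-5 was at 3.61% (0.0301 to 0.0429), vit-3 at 2.90% (0.0187 to 0.0431) and vit-4 at 2.57% (0.0156 to 0.0399). These exact binomial intervals cover counting error between 2 libraries only, since each strain had 1 library per hour. The reads carry no stated molecular identifiers, so repeated copies of a fragment may make even that error too small. By counting error alone, the intervals separate vit-1, vit-2 and vit-6 from each other. They also separate these genes from the vit-3, vit-4 and vit-5 group, within which the intervals overlap. In lin-41(xe11) at 38 h, vit-1 was at 125% of N2 (1.21 to 1.29), vit-2 at 88.6% (0.872 to 0.899) and vit-6 at 63.5% (0.627 to 0.644). vit-5 was at 36.99% (0.348 to 0.393), vit-4 at 27.7% (0.238 to 0.321) and vit-3 at 26.8% (0.232 to 0.309). In both strains vit-1 was the closest to N2 or above it, vit-2 and vit-6 followed, and vit-5, vit-3 and vit-4 were the farthest below.

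**Figure D3:**
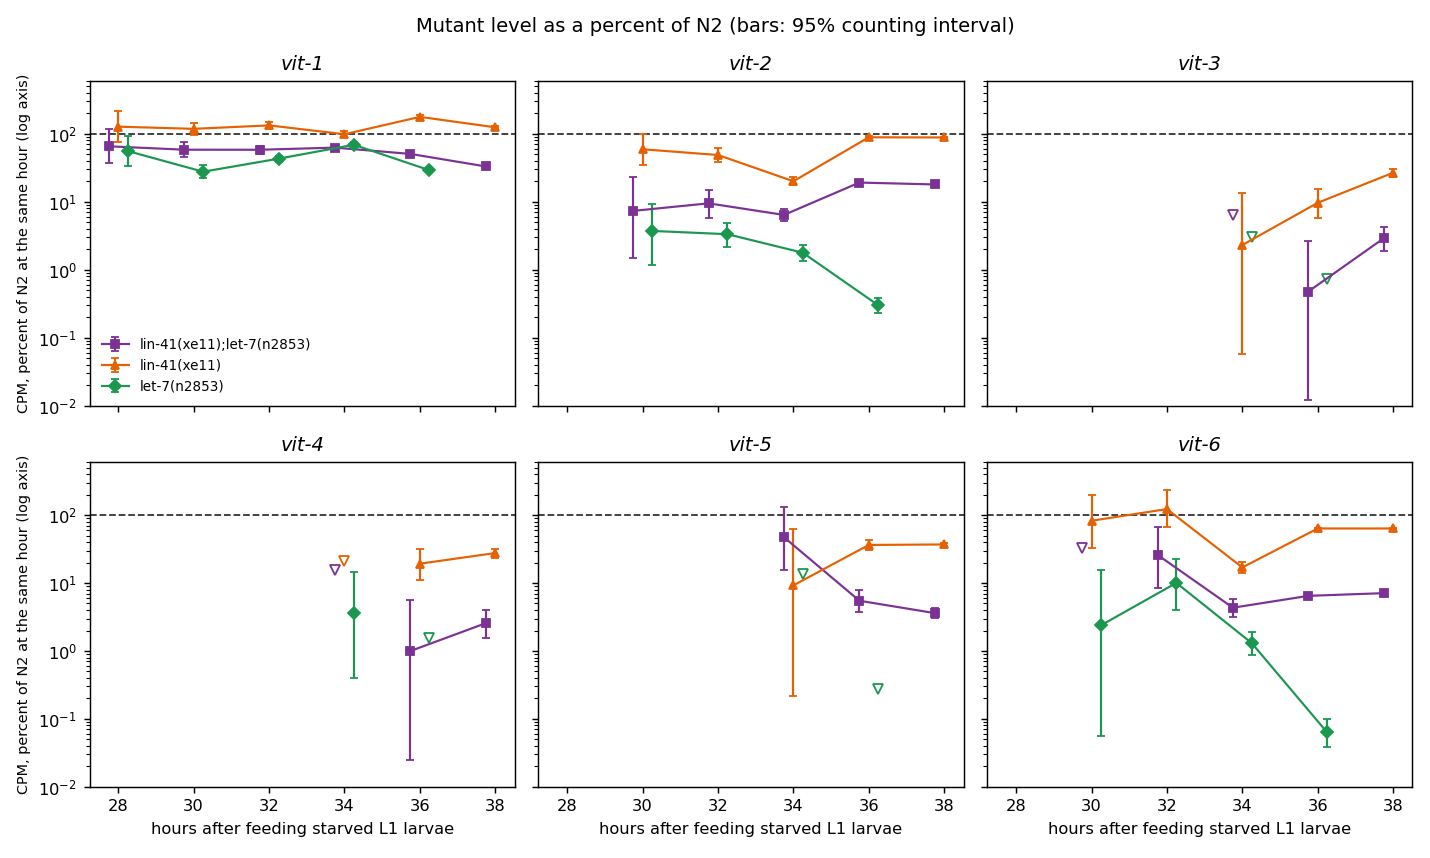
Level of each vitellogenin gene as a percentage of N2 at the same hour (log axis) in the double mutant, lin-41(xe11) and let-7(n2853) from 28 h on, where N2 had more than 3 counts. Bars are 95% counting intervals, open triangles are upper limits for libraries with 0 counts, and the dashed line marks N2. At 38 h the double mutant runs from 33.1% for vit-1 to 2.57% for vit-4, and lin-41(xe11) from 125% for vit-1 to 26.8% for vit-3.

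The hours before 38 h showed how the gap developed. In the double mutant vit-1 fell further behind N2 with time, at 62.8%, 50.7% and 33.1% of N2 at 34, 36 and 38 h. vit-2 was at 6.41%, 19.2% and 18.0% of N2, and vit-6 at 4.33%, 6.48% and 7.10%. In lin-41(xe11) vit-2 was at 20.1%, 89.1% and 88.6% of N2, and vit-6 at 17.0%, 63.6% and 63.5%. Among 34, 36 and 38 h, 34 h was thus the hour farthest from N2 for both genes in both strains. Between 34 and 36 h, vit-2 increased 17.1-fold in the double mutant and 25.4-fold in lin-41(xe11), against 5.72-fold in N2. Between 36 and 38 h the increases were alike for vit-2, at 4.73-fold in the double mutant, 5.00-fold in lin-41(xe11) and 5.04-fold in N2, and for vit-6, at 5.58-fold, 5.09-fold and 5.09-fold. vit-1 grew 2.38-fold and 2.55-fold in the double mutant and lin-41(xe11) over that step, against 3.64-fold in N2.

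Because the 34 h libraries stood apart, each mutant library was also set against N2 at the hour of the N2 course that it correlated with best over 1525 other genes, an alternative chosen after seeing the data. The double mutant libraries of 34, 36 and 38 h came out at 33.1, 36.3 and 37.7 h (r = 0.946, 0.925 and 0.920). Those of lin-41(xe11) came out at 33.3, 36.4 and 38.0 h (r = 0.947, 0.936 and 0.936). The N2 course ended at 38 h, so no library could be placed later. On that scale, vit-2 in the double mutant was at 12.9%, 15.1% and 23.0% of N2 at the 3 hours, and vit-6 at 18.0%, 5.07% and 9.06%. lin-41(xe11) had 34.6%, 64.5% and 88.6% of N2 for vit-2 and 51.1%, 45.9% and 63.5% for vit-6. Both genes stayed below N2 at all 3 hours in both strains, and so did vit-3, vit-4 and vit-5. vit-1 was at 70.8%, 41.8% and 40.2% of N2 in the double mutant, but at 108%, 137% and 125% in lin-41(xe11). The estimated hours carry no error of their own. Since vit-6 rose 29.2-fold in N2 from 32 to 34 h, a small error in the hour would shift these percentages widely.

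In earlier windows no strain comparison gave a call by edgeR. In mid L4 the test called 0 of 6 genes between the double mutant and N2 (0.0647% of all genes called), between lin-41(xe11) and N2 (0.0503%) and between the double mutant and lin-41(xe11) (0.0288%). At an unadjusted p under 0.05 the counts were 3, 0 and 3, against 686, 656 and 622 of all 13906 genes. DESeq2 called 1, 0 and 2, the last among 10 of all genes, and limma called none. The nearest to the threshold was vit-2, at 0.1, 0.412 and 2.65 CPM at 28, 30 and 32 h in the double mutant against 0.408, 5.60 and 27.9 CPM in N2, a log2 fold change of −3.38 ± 0.60 (edgeR adjusted p = 0.0510). It passed in DESeq2 (adjusted p = 2.7e-05), with no filter on low counts (0.0294), with 26 h in the window (0.0161), and without the 34 h (2.76e-05) or 36 h libraries (0.0496). vit-1 was at −0.76 ± 0.22 (adjusted p = 0.551), while vit-6 was at −2.63 ± 0.89 (adjusted p = 0.768) in the same comparison.

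In L3, edgeR called 0 of 6 genes between the double mutant and N2 (0.036% of all genes called), between lin-41(xe11) and N2 (0.0575%) and between the double mutant and lin-41(xe11) (0.0288%). At an unadjusted p under 0.05 the counts were 1, 1 and 0, against 956, 807 and 682 of all 13906 genes. Neither DESeq2 nor limma called any of the 6. vit-1 had 5 to 19 counts per library in the double mutant and 6 to 15 in lin-41(xe11), against 3 to 6 in N2. Its log2 fold change over N2 was 1.06 ± 0.47 in the double mutant (edgeR adjusted p = 0.677), and for lin-41(xe11) it was 0.95 ± 0.47 (adjusted p = 0.892).

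The change from L3 to late L4 was compared between strains as a difference of differences. edgeR called 0 of 6 genes for the double mutant against N2 (0.604% of all genes called), for lin-41(xe11) against N2 (0.288%) and for the double mutant against lin-41(xe11) (0.036%). At an unadjusted p under 0.05 the counts were 3, 1 and 3, against 1116, 1096 and 534 of all 13906 genes. DESeq2 called 3, 1 and 0 of the 6, against 146, 103 and 9 of all genes, and limma called 6, 1 and 1. The double mutant against N2 gave −5.92 ± 1.34 for vit-6 (edgeR adjusted p = 0.0510) and −2.14 ± 0.49 for vit-1 (adjusted p = 0.0555). The L3 window held between 0 and 13 counts of vit-6 per library in these strains, which limits that contrast.

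Within strains, the rise itself was tested between windows with no hour term, on the same 30 libraries. From mid L4 to late L4, edgeR called 2 of 6 genes higher in the double mutant (7.36% of all genes called higher), 4 in lin-41(xe11) (7.64%) and 6 in N2 (12.1%). vit-6 was called in all 3 strains, with log2 changes of 9.48 ± 2.13 in the double mutant (edgeR adjusted p = 0.00835), 9.85 ± 1.99 for lin-41(xe11) (adjusted p = 0.00575) and 10.66 ± 2.05 in N2 (adjusted p = 0.00203). vit-2 was called in all 3 as well, at 8.16 ± 2.06 (adjusted p = 0.0176), 7.95 ± 1.97 (0.0166) and 7.20 ± 1.90 (0.0145). vit-1 was called in lin-41(xe11) at 3.40 ± 1.09 (adjusted p = 0.0479) and in N2 at 3.39 ± 1.09 (adjusted p = 0.0334), but not in the double mutant at 2.83 (adjusted p = 0.0939). These counts depended on single hours, and so did the calls over all genes. Without 30 h, calls over all genes in either direction went from 1314 to 185 in the double mutant. They went from 1423 to 70 in lin-41(xe11) and from 2548 to 677 in N2. Of the 6 vitellogenin genes, 0 were called in the double mutant without 30 h, 3 without 32 h and 1 without 36 h or 38 h. In lin-41(xe11) 2 were called without 28 h or 38 h and 0 without 30 h. Leaving out 34 h gave 6 calls there, and leaving out 36 h gave 1. In N2 2 were called without 30 h, 4 without 36 h or 38 h, and 5 or 6 otherwise.

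From L3 to mid L4, edgeR called 1 of 6 genes in the double mutant (15.1% of all genes called in either direction), 1 in lin-41(xe11) (17.7%) and 2 in N2 (16.2%). vit-1 was higher in each strain of the second course, at 4.0 ± 1.10 in the double mutant (edgeR adjusted p = 0.0168), 5.30 ± 1.13 for lin-41(xe11) (adjusted p = 0.0033) and 5.82 ± 1.22 in N2 (adjusted p = 0.00348). The other call in N2 was vit-2 (adjusted p = 0.0286), which had 0 counts in all 4 L3 libraries of N2. In lin-41(xe11) 2 genes were called without the 28 h or the 34 h libraries. In the double mutant the vit-1 call was lost without the 32 h libraries (2.61, adjusted p = 0.128). In N2 the vit-2 call was lost without the 30 h libraries (adjusted p = 0.0506) or the 32 h libraries (adjusted p = 0.183). Without 32 h, calls over all genes went from 2101 to 731 in the double mutant. They went from 2459 to 989 in lin-41(xe11) and from 2252 to 816 in N2.

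The onset hour of a gene was set as the first hour at which its CPM was at least 4 times the strain's L3 mean and stayed so, with the L3 mean taken as no lower than 3 counts. vit-1 began at 30 h in the double mutant, 28 h in lin-41(xe11), 30 h in let-7(n2853) and 28 h in N2. vit-2 began at 32, 30, 32 and 30 h in the same order of strains, and vit-6 at 34, 32, 34 and 30 h. vit-3 and vit-4 both began at 38 h in the double mutant, 36 h in lin-41(xe11) and 34 h in N2, and vit-5 began at 36 h in all 3. vit-3, vit-4 and vit-5 had no onset in let-7(n2853) up to 36 h. Onset was later than in N2 for 5 genes in the double mutant, 3 in lin-41(xe11) and 6 in let-7(n2853), in steps of the 2 h sampling interval. This rule set each strain against its own L3 mean, which for vit-1 was 1.22 CPM in the double mutant and 0.590 CPM in N2. At 10 times the L3 mean, vit-1 began at 30 h and vit-6 at 34 h in the double mutant, lin-41(xe11) and N2 alike. In let-7(n2853), vit-6 had no onset at 10 times the L3 mean, at 1 CPM or with plain library totals. With a fixed level of 10 CPM as onset, 1 gene in place of 3 was later in lin-41(xe11). With 1 CPM as onset, vit-1 began earlier in every mutant, at 22 h in the double mutant, 20 h in lin-41(xe11) and 20 h in let-7(n2853), against 26 h in N2.

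The hour at which a gene crossed a fixed level, interpolated between libraries, gave a finer measure with no error of its own. vit-1 crossed 1 CPM at 21.07 h in the double mutant, 19.58 h in lin-41(xe11) and 19.69 h in let-7(n2853), against 25.19 h in N2, at levels that rest on few counts per library. It crossed 10 CPM at 29.7 h in the double mutant, 28.86 h in lin-41(xe11) and 30.61 h in let-7(n2853), against 29.11 h in N2. vit-2 crossed it at 34.11 h in the double mutant and 31.56 h in lin-41(xe11), against 30.72 h in N2. vit-6 crossed it at 34.68 h and 33.54 h, against 32.76 h in N2. The double mutant was later than N2 by 0.59 h for vit-1, 3.39 h for vit-2 and 1.92 h for vit-6 at this level. At 100 CPM it was later by 1.92 h for vit-1, 2.1 h for vit-2 and 2.17 h for vit-6. lin-41(xe11) was later at 100 CPM by 1.18 h for vit-2 and 0.84 h for vit-6, and reached that level of vit-1 at 34.09 h, against 34.14 h in N2. Lags under the 2 h sampling interval were not separable from the spacing of the libraries.

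The make-up of the vitellogenin counts changed with time in the same order in all strains that went far enough. vit-1 supplied nearly all of it at 28 h, with 92.6% of the summed counts in the double mutant (95% interval 75.7 to 99.1), 90.5% in lin-41(xe11) (77.4 to 97.3) and 87.5% in N2 (71.0 to 96.5). By 34 h its share was 82.5% in the double mutant (79.9 to 85.0), 69.8% in lin-41(xe11) (67.1 to 72.3) and 30.0% in N2 (28.4 to 31.6). By 38 h it was 16.9%, 10.6% and 6.29%. The share of vit-6 at 38 h was 30.9% in the double mutant (30.0 to 31.7), 45.7% in lin-41(xe11) (45.3 to 46.0) and 53.5% in N2 (53.2 to 53.8), and that of vit-2 was 50.7%, 41.2% and 34.6%. Among these 3 strains the make-up of the double mutant was thus the most weighted to vit-1 at 34, 36 and 38 h, and that of N2 the least, while let-7(n2853) held 94.9% vit-1 at both 34 and 36 h. Per kilobase of coding sequence, vit-2 led at 38 h in the double mutant, with 143 CPM per kb against 85.3 for vit-6 and 47.8 for vit-1. In lin-41(xe11) vit-6 led with 763 CPM per kb, before vit-2 with 704.7 and vit-1 with 180.3, and in N2 it led with 1201, before 796 and 144. vit-5, vit-3 and vit-4 followed in that order in all 3 strains, with 3.23, 0.612 and 0.489 CPM per kb in the double mutant and 89.5, 21.1 and 19.1 in N2.

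**Figure D4:**
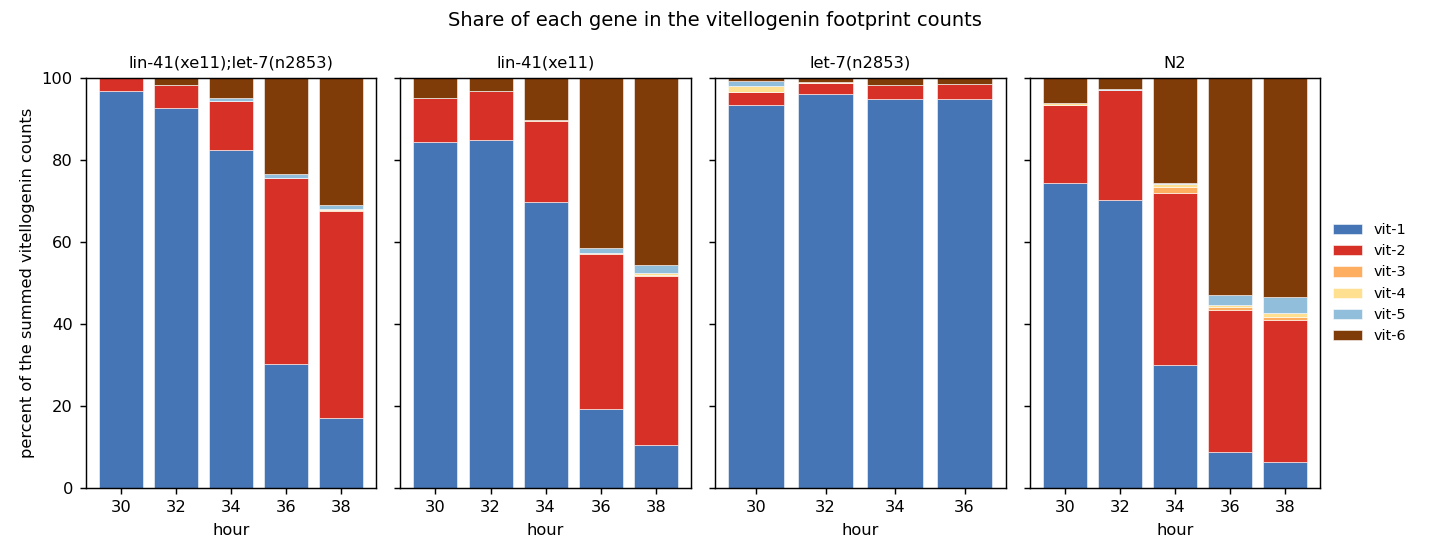
Share of each vitellogenin gene in the summed vitellogenin counts (percent) from 30 h on, with 1 panel per strain. The vit-1 share gives way to vit-2 and vit-6 from 34 h in N2 and from 36 h in the double mutant and lin-41(xe11), while let-7(n2853) keeps 94.9% vit-1 at 36 h.

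In let-7(n2853), vit-1 reached 65.9 CPM and the other members stayed under 3 CPM. vit-1 stood at 65.9 CPM at 34 h, 69.1% of N2, and at 56.2 CPM at 36 h, 29.2% of N2. Between these hours it fell to 0.852 of its level (95% interval 0.794 to 0.914), against a 2.02-fold increase in N2. vit-2 stood at 2.38 and 2.29 CPM at 34 and 36 h, 56.2-fold and 334-fold below N2. vit-6 had 28 and 19 counts, or 1.06 and 0.738 CPM, which was 1.30% and 0.0632% of N2. vit-3 and vit-5 had 0 counts at both hours, and at 36 h they were at least 168-fold and at least 453-fold lower than in N2, taking 3 counts as the floor of a library. vit-4 had 2 counts at 34 h and 0 at 36 h, the last at least 80.3-fold lower. The summed level at 36 h held 0.00561% of all counts in let-7(n2853) (95% interval 0.00533 to 0.0059) and 0.205% in N2 (0.202 to 0.208).

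These differences carry the offset between the 2 time courses, so the test compared the change from L3 between let-7(n2853) and N2. From L3 to late L4 (34 and 36 h here), edgeR called 0 of the 3 members that passed its filter on low counts, vit-1, vit-2 and vit-6, where 0.715% of all genes were called. All 3 had an unadjusted p under 0.05, as did 1976 of all 13560 genes. DESeq2 called the 3 members and 330 of all genes, and limma called 2 members. vit-1 gave −2.07 ± 0.51 (edgeR adjusted p = 0.111) and vit-6 gave −9.91 ± 2.21 (adjusted p = 0.0872), and vit-2 had an adjusted p of 0.163. Without the 34 h libraries all 3 were called, vit-1 at −2.67 (adjusted p = 0.0267), vit-6 at an adjusted p of 0.00261 and vit-2 at 0.0310, and without the 36 h libraries vit-6 was called at −7.51 (adjusted p = 0.0363). From L3 to mid L4, 0 of 3 were called (0.0147% of all genes). At an unadjusted p under 0.05 there were 2 (813 of all genes), and DESeq2 called 1 (12 of all genes) and limma 0. The let-7(n2853) libraries of 34 and 36 h matched the N2 course best at 32.7 and 33.5 h (r = 0.9155 and 0.8805). Against N2 at those hours, vit-1 was at 82.3% and 63.0%, vit-2 at 4.90% and 2.53%, and vit-6 at 10.5% and 1.99%. At 36 h each of these values was nearer to N2 than at the same hour of the clock, where vit-1 was at 29.2%, vit-2 at 0.300% and vit-6 at 0.0632%, and all 3 were still below N2.

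Of 8 genes for factors known to act on vitellogenin transcription, 2 were lower in the double mutant than in N2 in late L4, where 1.98% of all genes were called lower, and none was higher, with a list median of −0.04 on the log2 scale beside −0.02 for all genes. ceh-60, a homeodomain factor needed for vitellogenin expression, averaged 4.59 CPM in the double mutant, 6.53 in lin-41(xe11) and 8.55 in N2. It averaged 2.74 CPM in let-7(n2853), over 34 and 36 h only. Its log2 fold change in the double mutant was −0.89 ± 0.20 (edgeR adjusted p = 0.0159), and the call was lost without the 34 h (adjusted p = 0.0853), 36 h (0.0501) or 38 h libraries (0.226). mab-3, which represses vitellogenins in the male intestine, was lower in the double mutant at −2.38 ± 0.41 (adjusted p = 0.0017) and in lin-41(xe11) at −2.63 ± 0.44 (adjusted p = 0.00191). The call was lost without the 34 h libraries in the double mutant (−2.44, at an adjusted p just above 0.05) and without the 36 h libraries in lin-41(xe11) (adjusted p = 0.0555). The intestinal GATA factor gene elt-2 was at −0.04, unc-62 at −0.04 and pqm-1 at 0.19 in the double mutant, none called. Between the double mutant and lin-41(xe11) edgeR called 0 of the 8, and DESeq2 and limma called none. At an unadjusted p under 0.05 there was 1, beside 630 of all 13906 genes.

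Among 11 heterochronic genes, 3 were higher and 2 lower in the double mutant than in N2 in late L4. daf-12, a nuclear hormone receptor gene and let-7 target, averaged 25.1 CPM in the double mutant, 5.68 in lin-41(xe11) and 6.30 in N2. In let-7(n2853) it averaged 33.6 CPM, over 34 and 36 h only. Its log2 fold change in the double mutant over N2 was 1.98 ± 0.17 (edgeR adjusted p = 5.79e-07). hbl-1 was at 1.17 ± 0.18 (adjusted p = 0.000568) and lin-14 at 0.60 ± 0.12 (adjusted p = 0.00433), while lin-29 was at −0.87 ± 0.22 (adjusted p = 0.0334) and its cofactor mab-10 at −1.23 ± 0.23 (adjusted p = 0.00304). Of these, daf-12 alone was called without every single hour in turn. The call of lin-29 was lost without 30 h (adjusted p = 0.0564), 34 h (0.248) or 36 h (0.257), that of mab-10 without 36 h (0.0771), and those of hbl-1 and lin-14 without 34 h (0.0662 and 0.092). In lin-41(xe11), mab-10 was the only gene of the list called, at −1.09 ± 0.23 (adjusted p = 0.0124), and it was lost without 34 h (0.141), 36 h (0.109) or 38 h (0.0565). daf-12 was the only one of the 11 called between the double mutant and lin-41(xe11), at 2.15 ± 0.18 (adjusted p = 4.38e-06). Of 11 TOR, SGK-1 and insulin genes, pdk-1 was higher in the double mutant than in N2 at 0.65 ± 0.14 (adjusted p = 0.00891; 0.0919 without 36 h and 0.116 without 38 h), and 0 were lower. Of 8 BMP pathway genes edgeR called 0, with 2 at an unadjusted p under 0.05, 0 by DESeq2 and 1 by limma. Of 9 genes of yolk secretion and uptake it also called 0, with 2 at an unadjusted p under 0.05 and none by DESeq2 or limma. In the double mutant against N2, 2053 of all 13906 genes had an unadjusted p under 0.05. The yolk receptor gene rme-2 was the closest, at −0.92 ± 0.26 (adjusted p = 0.0530).

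Markers of tissues were read beside the vitellogenins. Of 13 intestinal genes, 0 were lower and 1, the peptide transporter gene pept-1 (0.43 ± 0.08, edgeR adjusted p = 0.00495, and 0.0605 without 36 h), was higher in the double mutant than in N2 in late L4, with a list median of 0.20. Their summed level was 8423 to 11941 CPM in the double mutant, 8147 to 10110 CPM in lin-41(xe11), 6513 to 8886 CPM in let-7(n2853) and 7274 to 8517 CPM in N2, with no gene at 0. At an unadjusted p under 0.05 there were 6 of the 13, all with higher values in the double mutant, beside 2053 of all 13906 genes. DESeq2 called 1 of the 13 and limma called 2. Of 12 oocyte and eggshell genes, 10 were tested and 2 were lower in the double mutant, cbd-1 at −0.69 ± 0.15 (adjusted p = 0.00983) and perm-2 at −1.02 ± 0.23 (adjusted p = 0.0303), both lost without 38 h (adjusted p = 0.366 and 0.12), and perm-2 also without 30 h (0.0564), 32 h (0.0609) or 36 h (0.0665). All 10 had negative values, with a list median of −0.66 beside −0.02 for all genes, and 7 had an unadjusted p under 0.05, while DESeq2 and limma called 2 each. Their summed level ran from 51.6 to 589 CPM in the double mutant, 71.3 to 717 CPM in lin-41(xe11), 35.5 to 119 CPM in let-7(n2853) and 127.5 to 867 CPM in N2, so these genes also increased across the window. Of 8 sperm genes and of 8 molting genes, edgeR called 0 in the double mutant against N2, with 0 at an unadjusted p under 0.05 and none by DESeq2 or limma in either list. In lin-41(xe11) against N2, edgeR called 0 genes of the TOR and insulin, BMP, yolk secretion and uptake, intestine, oocyte, sperm and molting lists. At an unadjusted p under 0.05 these lists had 2, 0, 0, 3, 2, 0 and 0 genes, beside 1592 of all 13906 genes. DESeq2 called none of these lists, and limma called 1 TOR and insulin gene and 1 oocyte gene.

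Of 6 adult epidermal markers, 5 were lower in the double mutant than in N2 in late L4, and lin-41(xe11) gave the same count. The adult collagen gene col-19 was at −2.92 ± 0.22 in the double mutant (edgeR adjusted p = 9.49e-08) and −2.27 ± 0.21 in lin-41(xe11) (adjusted p = 2.75e-06), and the cuticle strut gene bli-1 at −3.24 and −3.09. In the same order of strains, the others were rol-1 at −2.47 and −2.34, col-7 at −2.10 and −2.06, and bli-2 at −1.45 and −1.55. The col-7 calls were lost without 38 h in the double mutant (adjusted p = 0.0596) and in lin-41(xe11) (0.0765), and with a window of 28 to 36 h col-7 was at −0.47 and −1.83, not called. The bli-2 calls were lost without 36 h in the double mutant (0.0584), and without 36 h (0.075) or 38 h (0.065) in lin-41(xe11), where the window of 28 to 36 h gave −0.84, not called. rol-1 in lin-41(xe11) was not called by DESeq2 (0.0688). Between the double mutant and lin-41(xe11), edgeR called 0 of the 6, with 1 at an unadjusted p under 0.05, none by DESeq2 or limma and a median of −0.08, beside 5 of the 6 vitellogenin genes. The lists were not tested against each other. From L3 to late L4 in let-7(n2853) against N2, edgeR called lin-41 (1.61 ± 0.22, adjusted p = 0.0115; 0.0625 without 34 h), daf-12 (1.81 ± 0.19, adjusted p = 0.00405), hbl-1 (1.40 ± 0.24, adjusted p = 0.0366; 0.0719 without 30 h, 0.269 without 34 h and 0.179 without 36 h) and col-19 (−6.88 ± 0.85, adjusted p = 0.00894). It called 0 of 8 vitellogenin transcription genes there, with 3 at an unadjusted p under 0.05, 0 by DESeq2 and 1 by limma, and 0 of 13 intestinal genes, with 2, 1 and 0. With a window of 28 to 36 h in place of late L4, lin-14, pdk-1, pept-1, cbd-1 and perm-2 were not called in the double mutant against N2, nor were lin-41, hbl-1 and col-19 in let-7(n2853). The part of the oocyte and epidermal markers, or of the estimated hours, in the vitellogenin values was not tested.

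**Figure D5:**
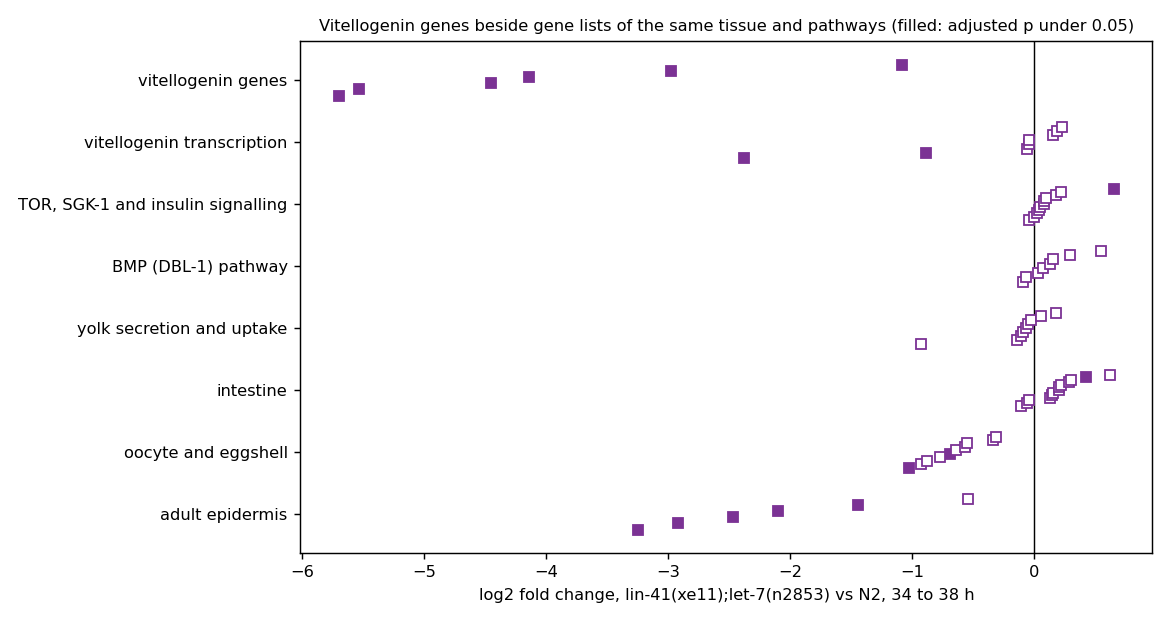
Log2 fold change of the double mutant over N2 in late L4 for the vitellogenin genes and for 7 of the pathway and marker lists, 1 square per gene, filled where the edgeR adjusted p was under 0.05. The vitellogenins lie between −5.70 and −1.08 and all are filled, while 1 intestinal gene, at 0.43, is filled.

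The genes whose pattern was most like that of vit-2 and vit-6 were ranked by Pearson correlation of log2(CPM + 1) over the 43 libraries among 7317 genes, as a description with no p, since the libraries share strains and hours. vit-6 and vit-2 were each other's closest match (r = 0.979), but this order depended on the setting. With 0.1 added in place of 1, the closest to vit-2 was D1054.10 and vit-6 was in place 3. In the 33 libraries of the second course alone, the closest was snf-9 for vit-2, with vit-6 in place 2, and col-139 for vit-6, with vit-2 in place 3. Over all 43 libraries with 1 added, the next for vit-2 were the collagen genes col-81 (0.973), col-139 (0.963) and col-20 (0.958), the chitinase gene cht-3 (0.955), snf-9 (0.954), try-14 (0.953), and perm-2, col-178 and D1054.10 (0.952 each). The next for vit-6 were col-139 (0.979), col-178 (0.976), col-81 (0.975), col-152 (0.975), col-20 (0.973), col-129 (0.971), col-140 (0.967), col-122 (0.965) and C44B7.5 (0.962). The other vitellogenins ranked lower in likeness to vit-6, vit-5 in place 30, vit-3 in place 91, vit-4 in place 112 and vit-1 in place 205. For vit-2 the places were 123 for vit-1, 135 for vit-5, 389 for vit-3 and 466 for vit-4. These places moved widely, for example to 18 with 0.1 added and 225 in the second course for vit-1 beside vit-2, and to 8 and 70 for vit-5 beside vit-6. vit-3 and vit-4 had 3 counts or fewer in 8 to 10 libraries of every strain, and the part of low counts in these places was not tested.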

How the data were processed

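Ribosome footprints were counted per gene in 43 whole-worm libraries. The authors deposited raw counts for 20182 genes, mapped with Bowtie per the submitters' processing notes. The Bowtie version, genome build, annotation, strand setting and treatment of reads that match several places are not given in the sources used here. The authors also deposited log2 values, which were the log2 of a scaled count after 8 was added; the common total was 26096086 in the let-7(n2853) course and 12019637 in the other. Monosome purification differed between these courses, per the labels' protocols. Rows carry gene identifiers, of which 18778 matched a symbol; positions and coding lengths were taken from the WBcel235 annotation, which may not be the authors' build. No library pair was identical; the highest correlation between 2 libraries was 0.9968.

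Samples were grouped by strain and hour from the labels. The count model was the quasi-likelihood fit of edgeR 4.0.16 (TMM factors, at least 1 CPM in at least 3 libraries, R 4.3.3, limma 3.58.1). The double mutant, lin-41(xe11) and N2 were fitted together with a term per hour and a term per mutant strain and window (30 libraries, 13906 genes, 14 residual degrees of freedom). Windows within a strain were compared in a fit with no hour term (21 residual degrees of freedom). let-7(n2853) was fitted with N2 alone (18 libraries, 13560 genes, 6 residual degrees of freedom). The 26 h libraries were in no test. The hour links libraries of the strains in 1 course, so it was the block of the main fit. SE is the log2 fold change over the square root of the F statistic. The fits were tested on simulated counts with known changes. Ratios and shares carry exact binomial intervals (95%), and levels between genes were compared per coding length. DESeq2 1.42.0, limma on the deposited log2 values, other factors and filters, other windows, no hour term and leaving out each hour were tried as alternatives.

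All 6 members are named. From the fixed lists every gene called in the late L4 comparisons was named, up to 6 per list and comparison, and the 10 genes closest in pattern to vit-2 and to vit-6 were ranked among genes with a symbol and at least 20 CPM in some library. The members and lists were chosen with earlier results of these data known. No sequence is printed.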

Additional observations from a re-analysis of the deposited data

Results flagged for a closer look

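There were 18 groups of 4 L3 hours (6 genes in the 4 strains, fewer where all values were 0). In 3 of them, an hour stood apart by the ratio of its gap to the group's range. The chance rate of about 1 such group in 20 holds for continuous values only. A group with 1 count at 1 hour and 0 at the others always has a ratio of 1.0. The number of such groups can therefore not be compared with chance here. For vit-3 in lin-41(xe11) the highest hour had a ratio of 1.0, from 1 count at 18 h and 0 at the others. For vit-3 in let-7(n2853) the highest hour also had a ratio of 1.0, from 1 count at 20 h and 0 at the others. For vit-4 in the double mutant the lowest hour had a ratio of 0.888, from 0 counts at 20 h and 1 to 2 counts at the others. All 3 rest on at most 2 counts per library.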

How the results depend on the processing

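No called vitellogenin value changed direction under any alternative, and of the tests of single genes 738 kept their side of the threshold, 139 lost it and 20 gained it. Without the hour term, that is with no replicate block or pairing of libraries by hour, edgeR called 0 of 6 genes in each of the 3 late L4 strain comparisons, against 6, 3 and 5 with it. Hours pair the libraries by the labels' time points, not by shared animals.

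DESeq2 called 1 gene for lin-41(xe11) against N2 and 3 for the double mutant against lin-41(xe11) in late L4. In mid L4 it called 1 for the double mutant against N2 and 2 against lin-41(xe11). For the change from L3 to late L4 it called 3 in the double mutant, 1 in lin-41(xe11) and 3 in let-7(n2853) against N2. It called 2 from L3 to mid L4 within lin-41(xe11), and 1 for that change in let-7(n2853) against N2. limma called 6, 1 and 2 for the change from L3 to late L4 in the double mutant, lin-41(xe11) and let-7(n2853) against N2, and 1 in the double mutant against lin-41(xe11). From L3 to mid L4 it called 0 in the double mutant and 1 in N2. With no filter on low counts, 1 gene was called in the double mutant against N2 in mid L4 and 1 for the change from L3 to late L4. With 26 h in the mid L4 window, 1 was called in the double mutant against N2 in mid L4, and from L3 to mid L4 0 in the double mutant and 1 in N2. With a window of 28 to 36 h, 3 were called in the double mutant against lin-41(xe11). With onset at 10 CPM, 1 gene began later in lin-41(xe11) than in N2. The cause of these shifts was not tested.

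Leaving out each hour in turn gave these ranges of called members. For the double mutant against lin-41(xe11) they were 2 to 5 in late L4, 0 to 2 in mid L4 and 0 to 1 for the change from L3. For the double mutant against N2 they were 0 to 1 in mid L4 and 0 to 2 for the change from L3 to late L4, and for let-7(n2853) 0 to 3. From mid to late L4 they were 0 to 3 in the double mutant, 0 to 6 in lin-41(xe11) and 2 to 6 in N2, and from L3 to mid L4 0 to 1, 1 to 2 and 1 to 2.

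Over all genes, late L4 calls ran over all alternatives from 25 to 577 around 506 for the double mutant against N2, from 7 to 333 around 254 for lin-41(xe11) against N2 and from 3 to 41 around 32 between the mutants. In mid L4 they ran from 2 to 16 around 9, 1 to 8 around 7 and 2 to 10 around 4, and in L3 from 4 to 20 around 5, 0 to 29 around 8 and 2 to 7 around 4. For the change from L3 to late L4 they ran from 2 to 146 around 84, 0 to 103 around 40, 0 to 9 around 5 and, in let-7(n2853), 3 to 330 around 97 (0 to 12 around 2 for mid L4). From mid to late L4 they ran from 185 to 2186 around 1314 in the double mutant, 70 to 2539 around 1423 in lin-41(xe11) and 677 to 3496 around 2548 in N2, and from L3 to mid L4 from 731 to 2596 around 2101, 989 to 2776 around 2459 and 816 to 2630 around 2252. Few counts limit what can be read for vit-3, vit-4 and vit-5, which had 3 counts or fewer in 8 to 10 libraries of every strain. The same held in let-7(n2853), whose libraries had the highest total counts.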
